A study of Mus musculus with 8 samples.

Results

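Kinesins, cytoplasmic dynein and dynactin carry cargo along microtubules. Most kinesins walk toward microtubule plus ends, which point away from the cell body in axons, whereas cytoplasmic dynein walks toward minus ends and depends on dynactin, a multisubunit partner, for long runs. In neurons these motors supply axons and dendrites with vesicles, mitochondria and neurofilaments and return endosomes to the cell body, and variants of human KIF5A and DCTN1 are known causes of motor neuron disease. Here 66 motor genes were described in mouse brain RNA out of 15978 rows in the authors' deposited table. They were all rows whose RefSeq names mapped to mouse symbols beginning with Kif, Klc and a digit, Dync, Dynl, or Dctn and a digit, a rule that reads symbols and no measured value. They comprised 41 Kif genes, 4 kinesin light chain genes, 15 dynein genes and 6 dynactin genes, out of 70 protein-coding genes of the RefSeq reference whose symbols meet the same pattern.

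The study compared 5 male mice carrying a bacterial artificial chromosome (BAC) that holds human C9ORF72 with 500 G4C2 repeats, called C9-BAC here, with 3 wild-type males. All 8 mice were on an SJL/Bl6 background, and total RNA of the brain was sequenced strand-specifically without selection for poly(A). The labels give no age, brain region, transgenic line or promoter, and a sample is read as 1 mouse, from its number. Were that not so, p-values would measure only the spread between samples, which may be technical. The comparison asks how the repeat-bearing transgene alters brain transcripts. The numerator of the deposited fold change is not stated, so positive and negative signs are as deposited and say nothing of which genotype had more. In what follows, a log2 value is a deposited log2 fold change and SE its deposited standard error.

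The authors' deposited table holds 1 row per gene for all mice together. Its level is a mean normalized count, the mean of counts divided by size factors, and the total over all rows was 9226666, of which the motor genes made up 1.70%. Values of single mice, and the depth of each library, were not analysed here. Brain cell markers were present: neuronal list genes had mean normalized counts from 837.0 upward in the authors' deposited table, and those of oligodendrocytes, astrocytes, microglia and endothelial cells from 59.6, 413.3, 37.0 and 84.8 upward. In bulk tissue, fewer cells of a type and less RNA per cell cannot be told apart.

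No motor gene passed a DESeq2 adjusted p of 0.05 in the comparison of C9-BAC with wild-type brain. Of the 66 genes, 0 passed, and 0% of all rows did. In the authors' deposited table, 1 of 66 motor genes (1.52%) had an unadjusted p under 0.05, against 1.50% of all rows tested. The motor genes' share was thus near the background. That gene was Kif26b, and the next in order were Dctn3 and Kif5a. Every motor gene had a DESeq2 adjusted p of 0.9997 in the authors' deposited table. The deposited log2 values of the 66 genes ran from -0.13 for Kif2a to 0.20 for Dctn3 in the authors' deposited table, with 34 positive and 32 negative, a split that was 37 and 29 with the trend on GC content and transcript length taken off. Of all rows, 47.4% were positive in the authors' deposited table, and 7826 were positive and 8043 negative without that trend. The median of the motor genes was 0.003, against -0.0044 over all rows, and 84.8% of the motor genes, against 82.6% of all rows, had a log2 value within 0.1 of 0 in the authors' deposited table. These values are read as shrunken toward 0, for reasons given with the standard errors below. The plot of deposited fold changes shows the motor genes scattered on both sides of 0 in each of the 11 roles.

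**Figure D1:**
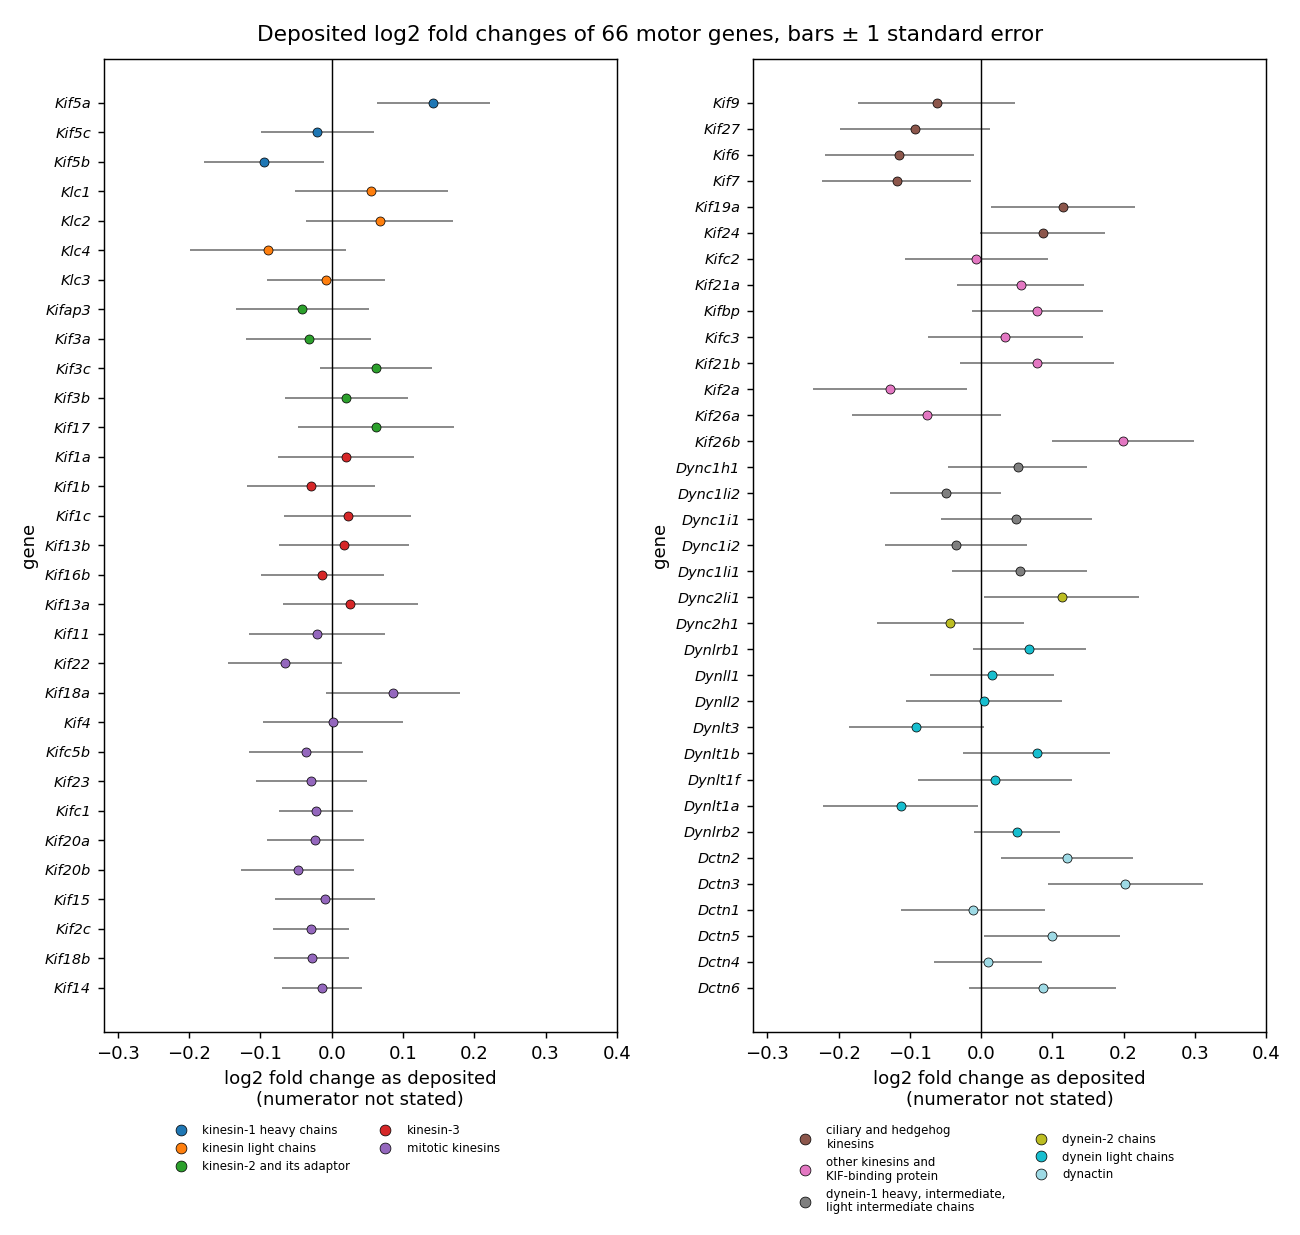
Deposited log2 fold change (x axis, numerator not stated) of each of the 66 motor genes, coloured by role and ordered within a role by level, with bars of 1 standard error on each side. Only Kif26b, Dctn3 and Kif5a had an unadjusted p under 0.1, and 56 of the 66 points lie within 0.1 of 0.

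Sequence similarity limits which of these rows can be read separately, so the coding starts of pairs of paralogous light chains are shown first. Dynlt1a, Dynlt1b and Dynlt1f encode the Tctex-type dynein light chain from neighbouring copies on chromosome 17. Their coding sequences of 339 bases in GENCODE vM21 were identical between Dynlt1a and Dynlt1f, and that of Dynlt1b differed from them at 1 base. Dynll1 and Dynll2 encode a small light chain shared by dynein and many other complexes, and their coding sequences of 267 bases differed at 50 positions, with a longest identical stretch of 16 bases. The first 60 coding bases of a pair of each kind are given 5′ to 3′ on the coding strand, with capitals at bases that differ within the pair. The coordinates are GRCm38 (mm10), and those of the Dynlt1 genes span an intron: Dynlt1b at chr17:6430212-6431912 (plus strand), Dynlt1f at chr17:6653320-6655800 (minus strand), Dynll1 at chr5:115300585-115300644 (minus strand) and Dynll2 at chr11:87983944-87984003 (minus strand).
Dynlt1b: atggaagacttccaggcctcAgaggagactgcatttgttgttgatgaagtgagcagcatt
Dynlt1f: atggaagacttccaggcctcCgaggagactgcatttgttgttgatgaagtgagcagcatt
Dynll1: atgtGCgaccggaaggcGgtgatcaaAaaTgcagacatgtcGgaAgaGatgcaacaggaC
Dynll2: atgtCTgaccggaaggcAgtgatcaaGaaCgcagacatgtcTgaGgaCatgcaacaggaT

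Counted from the A of the start codon, the difference between Dynlt1b and Dynlt1f is A21C, whereas Dynll1 and Dynll2 differ at 9 of these 60 bases. Over whole reference transcripts, 49 of the 66 motor genes shared no stretch of 50 bases with another gene, and 61 shared fewer than 5% of such stretches. The others were Dynlt1f (93.1%), Dynlt1b (83.2%), Dynlt1a (59.4%), and the paralogs Kifc1 (47.6%) and Kifc5b (42.1%). The handling of reads that match several genes was not stated, so the values of these 5 rows are uncertain. For Dynlt1f and Dynlt1a, the gene that shared most such stretches was Dynlt1c. Kif5a and Dctn2 share no such stretch in the sense direction, but their bounds overlap on chromosome 10, where Dctn2 starts at 127266262 and Kif5a ends at 127266348. Libraries were stranded, and whether counting used strand was not stated.

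Levels differed far more between motor genes than the fold changes did. To compare genes, the mean normalized count was divided by the length of the longest reference transcript of the row, giving a level per kb. The highest motor level was that of Kif5a, at 4990 per kb, rank 33 among the 15869 rows with a length, and the lowest was that of the mitotic kinesin Kif14, at 0.452 per kb. The median over motor genes was 103.9 per kb, against 59.7 per kb over all rows. All 13 mitotic kinesins had levels between 0.452 and 4.63 per kb, below every other motor gene except Kif24, a centriolar kinesin at 2.42 per kb.

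**Figure D2:**
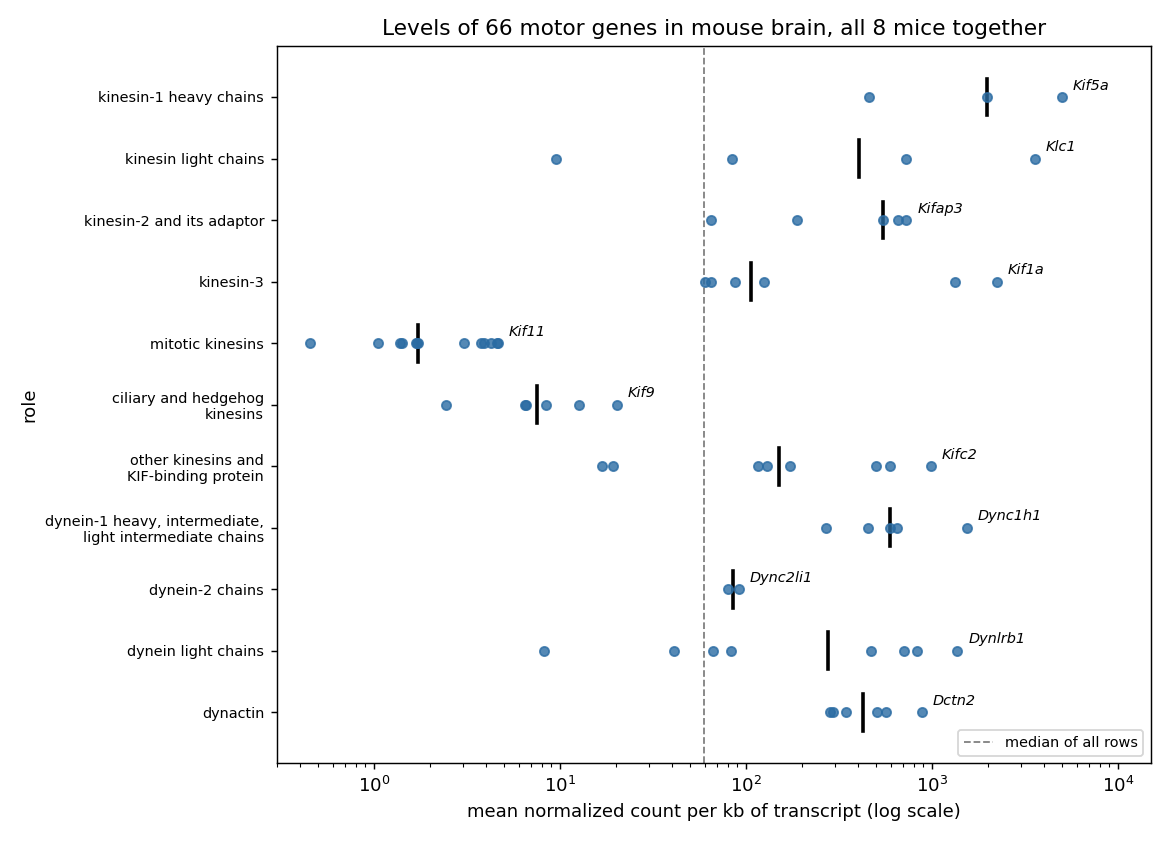
Mean normalized count per kb of the longest reference transcript (log x axis) for the 66 motor genes, 1 point per gene and 1 row per role. Black bars are medians of a role, the dashed line is the median of all rows (59.7 per kb), and the gene named in each row has the highest level of its role.

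The kinesin-1 heavy chains, which pull most fast cargo in axons, were the most abundant role, with a median of 1978 per kb. Kif5a, a neuronal heavy chain, made up 67.2% of the summed level per kb of the 3 heavy chains. Kif5c made up 26.6% and the widely expressed Kif5b 6.20%. Kif5a was 10.8 times the level per kb of Kif5b. Their deposited fold changes pointed different ways. Kif5a, on chromosome 10 at 127225695 to 127266348 (mm10), averaged 31412 normalized counts in the authors' deposited table, with a log2 value of 0.14 (SE 0.08, p = 0.0723, DESeq2 adjusted p = 0.9997). It ranked 376 by unadjusted p among the 15944 rows tested. In the authors' deposited table, Kif5c was at -0.02 (SE 0.08, p = 0.796). The authors' deposited table has Kif5b at -0.10 (SE 0.08, p = 0.258). Whether the fold changes of the heavy chains differ from each other was not tested.

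Kinesin light chains link the heavy chains to cargo. Klc1 supplied 81.3% of their summed level per kb and Klc2 16.6%, while Klc4 and Klc3 made up 1.92% and 0.215%. Summed over the role, heavy chains were at 1.69 times the light chains per kb. None of the light chains stood out: in the authors' deposited table Klc1 was at 0.06, Klc2 at 0.07, Klc4 at -0.09 and Klc3 at -0.01 on the log2 scale. Their SE lay between 0.083 and 0.11, and their median log2 value of 0.02 in the authors' deposited table became -0.01 without the GC and length trend.

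Kinesin-2 motors carry cargo in axons and in cilia, where the pair of Kif3a and Kif3b works with the adaptor Kifap3. Levels per kb were 729.6 for Kifap3, 661.4 for Kif3a, 545.6 for Kif3c, 188.5 for Kif3b and 64.9 for Kif17, a dendritic motor. In the authors' deposited table the log2 values of these 5 genes lay between -0.04 for Kifap3 and 0.06 for Kif17. The smallest unadjusted p among them was that of Kif3c (0.429) in the authors' deposited table.

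Kinesin-3 motors move synaptic vesicle precursors, endosomes and dense-core vesicles. Kif1a, the main carrier of synaptic vesicle precursors, was at 2234 per kb and Kif1b at 1330 per kb, which made up 57.2% and 34.1% of the summed level of the 6 genes. The remaining levels per kb were 125.9 for Kif1c, 87.4 for Kif13b, 65.3 for Kif16b and 59.96 for Kif13a. This role had the narrowest span of fold changes of any role of 3 or more genes, from -0.03 for Kif1b to 0.03 for Kif13a in the authors' deposited table. Kif1a averaged 18335 normalized counts in the authors' deposited table, with a log2 value of 0.02 (SE 0.10, p = 0.836).

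The other kinesins outside mitosis and cilia included the single motor gene with an unadjusted p under 0.05. Kif26b, an atypical kinesin, lies on chromosome 1 at 178529125 to 178932857 (mm10) and was expressed at a low level of 16.9 per kb. It averaged 231.7 normalized counts in the authors' deposited table, with a log2 value of 0.20 (SE 0.10, p = 0.0444, DESeq2 adjusted p = 0.9997), rank 208 by unadjusted p. Its paralog Kif26a, at 19.4 per kb, had the opposite sign in the authors' deposited table, -0.08 (SE 0.10). Kif2a, a kinesin-13 that shortens microtubules, had the most negative value of all motor genes, -0.13 (SE 0.11, p = 0.235) in the authors' deposited table. The minus-end kinesin gene Kifc2 had the highest level of this role, 990.0 per kb, and a log2 value of -0.01 in the authors' deposited table. Kif21a and Kif21b, plus-end kinesins that also restrain microtubule growth, were at 592.2 and 129.4 per kb with log2 values of 0.06 and 0.08 in the authors' deposited table. Kifbp, a protein that binds kinesin motor domains, had a log2 value of 0.08 and Kifc3 one of 0.03 in the authors' deposited table.

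Mitotic kinesins build the spindle and divide the cell, and most cells of a mature brain do not divide. The 13 genes had mean normalized counts from 3.48 to 22.3 in the authors' deposited table, and 9 of them were under 10. Signs in the authors' deposited table were positive for 2 and negative for 11, with a median log2 value of -0.02. With the GC and length trend taken off, 6 were positive and 7 negative. That trend was fitted on rows averaging at least 10 normalized counts, which leaves out 9 of these 13 genes. The median size of a log2 value was 0.0535 in all rows averaging at least 10 and 0.025 in scarcer ones. Whether the lean to negative values depended on the trend therefore cannot be told from these counts. Kif18a, which aligns chromosomes, was the one with the smallest p, at 0.09 (SE 0.09, p = 0.358) in the authors' deposited table. Kif11, the spindle motor with the highest level of the role (4.63 per kb), had a value of -0.02 in the authors' deposited table. Markers of dividing cells stood at similar levels, from 0.657 to 8.20 per kb. Of these, 2 of 16 were positive and 14 negative in the authors' deposited table, with a median log2 value of -0.03. Among all rows averaging under 10 normalized counts, 43.0% were positive as deposited. With the GC and length trend taken off, 3 of the 16 markers were positive and 13 negative, with a median of -0.015. The markers thus kept their lean, although 7 of them averaged under 10, where the trend was not fitted. None of the 16 had an unadjusted p under 0.05, against 1.50% of all rows tested. The smallest were those of Bub1 (0.0789) and Top2a (0.0977) in the authors' deposited table. The part of dividing cells in the values of the mitotic kinesins was not tested.

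Kinesins of cilia and of hedgehog signalling were also scarce, at 2.42 to 20.3 per kb. In the authors' deposited table, Kif7, a hedgehog regulator at the ciliary tip, had a log2 value of -0.12 and Kif6 one of -0.11, each with an SE of 0.10. Kif27 (-0.09) and Kif9 (-0.06) were negative too, whereas Kif19a (0.11) and Kif24 (0.09) were positive in the authors' deposited table. The smallest unadjusted p in the role was 0.254 in the authors' deposited table. Markers of ependymal cells, the ciliated lining of the ventricles, were at 0.498 to 21.9 per kb, of which 3 were positive and 7 negative in the authors' deposited table, and their part in these values was not tested.

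The dynein-1 motor was present with every kind of chain. Its heavy chain gene Dync1h1 averaged 22234 normalized counts in the authors' deposited table and had a level of 1550 per kb, the highest among the chains. The intermediate chains were near each other, with Dync1i1 at 595.5 per kb and Dync1i2 at 454.3 per kb, and of the light intermediate chains Dync1li2 made up 70.7% and Dync1li1 29.3% per kb. Log2 fold changes in the authors' deposited table were 0.05 for Dync1h1, 0.05 for Dync1i1, -0.04 for Dync1i2, 0.05 for Dync1li1 and -0.05 for Dync1li2. The last of these had the smallest unadjusted p of the chains, 0.521 in the authors' deposited table.

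Dynein-2, which returns cargo along cilia, was much scarcer. Dync2h1 was at 79.7 per kb, so that Dync1h1 was at 19.4 times its level, and Dync2li1 was at 91.6 per kb. In the authors' deposited table their log2 fold changes were -0.04 and 0.11, with an SE of 0.10 for Dync2h1 and 0.11 for Dync2li1 (p = 0.676 and p = 0.299).

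Among the light chains, Dynlrb1, of the roadblock type, was highest at 1372 per kb, followed by Dynll1 at 828.3 and Dynll2 at 712.0 per kb. The log2 values of Dynll1 and Dynll2, whose coding starts are shown above, were 0.02 and 0.004 in the authors' deposited table. Dynlrb1 stood at 0.07 and Dynlt3 at -0.09 in the authors' deposited table. The 3 Dynlt1 rows did not share a sign, with -0.11 for Dynlt1a, 0.08 for Dynlt1b and 0.02 for Dynlt1f in the authors' deposited table, and with near-identical coding sequences these are not separate measurements to the extent that reads were shared. Dynlrb2, a light chain of ciliated cells, averaged only 4.22 normalized counts in the authors' deposited table.

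The 6 dynactin genes with Dctn symbols spanned a narrow range of levels, with the highest at 3.11 times the lowest per kb. They had 5 positive and 1 negative fold change and a median log2 value of 0.09 in the authors' deposited table, against -0.0044 over all rows. Dynactin also holds actin-related and capping subunits, which the symbol rule leaves out: in the authors' deposited table these were at 0.04 for Actr1a, 0.14 for Actr1b, -0.13 for Actr10, -0.11 for Capza1, -0.11 for Capza2 and 0.02 for Capzb. Over all 12 genes, a grouping made after their values were seen, 8 were positive and 4 negative with a median log2 value of 0.03 in the authors' deposited table, and levels per kb spanned 5.94 times. Dctn3, the p24 subunit of the shoulder, had the most positive value of any motor gene, 0.20 (SE 0.11, p = 0.0619, DESeq2 adjusted p = 0.9997) in the authors' deposited table. Dctn2, also called dynamitin, was at 0.12 (SE 0.09, p = 0.193) in the authors' deposited table. Of the pointed end, the authors' deposited table has Dctn4 at 0.01, Dctn5 at 0.10 and Dctn6 at 0.09, beside Actr10 at -0.13. Dctn1, which encodes the large subunit that binds dynein and microtubules, was the 1 negative gene with a Dctn symbol. This gene, on chromosome 6 at 83165909 to 83200118 (mm10), averaged 2187 normalized counts in the authors' deposited table, with a log2 value of -0.01 (SE 0.10, p = 0.91). No subunit passed, and the counts of signs, which were the same for the 6 and for the 12 genes without the GC and length trend, were not tested.

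Among partners of the motors no gene passed either. Of 21 dynein regulators and activating adaptors, a list that includes the actin-related and capping subunits of dynactin, 10 were positive and 11 negative in the authors' deposited table, with a median log2 value of -0.0046, led by Pafah1b1 (Lis1, a dynein activator) at -0.13 and the adaptor Hook1 at -0.12. Of 29 kinesin adaptors and cargo linkers, the authors' deposited table has 17 positive and 12 negative, with a median of 0.02, and Mapk8ip1 at 0.14 and Clstn1 at 0.13 had the smallest p. Among 28 microtubule-associated proteins 18 were positive in the authors' deposited table (median 0.02), with Map2 at -0.12 and Stmn2 at 0.14 leading by p. In these 3 lists of the authors' deposited table, 0 genes had an unadjusted p under 0.05, against 1.50% of all rows tested. Beside that share, counts this small say little about a list, here and in the lists that follow. Of 26 intraflagellar transport genes 13 were positive, or 16 without the GC and length trend. That list includes the dynein-2 chains Wdr60, Wdr34 and Tctex1d2. Ift172, at 0.21 (SE 0.09, p = 0.0157) in the authors' deposited table, was the 1 gene under 0.05, followed by Wdr60 at 0.16. The axonemal dyneins, which beat cilia and are separate from the cytoplasmic motor, were positive for 10 of 16 genes in the authors' deposited table, with Dnah6 at 0.12 (p = 0.0494) and Dnah7b at -0.13.

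Markers of brain cell types differed in their share of positive values. Of 12 neuronal list genes, 10 were positive and 2 negative in the authors' deposited table, with a median log2 value of 0.07, and Thy1 had the smallest p at 0.21 (SE 0.09, p = 0.0179), followed by Syp at 0.10. Positive members numbered 3 of 10 for oligodendrocytes, 1 of 9 for astrocytes, 4 of 10 for microglia and 7 of 10 for endothelial cells in the authors' deposited table, with medians of -0.02, -0.03, -0.015 and 0.04. Without the GC and length trend, 9 of 12 neuronal genes (median 0.05) and 3 of 9 astrocyte genes were positive. The counts for oligodendrocytes, microglia and endothelial cells were then 4, 3 and 8 of 10. The smallest p belonged to Mog and Aspa among oligodendrocyte genes, to Aldh1l1 and Slc1a3 among astrocyte genes and to Pecam1 and Cldn5 among endothelial genes. In the authors' deposited table, 0 genes of these 3 lists were under 0.05, against 1.50% of all rows tested. The part of cell makeup in the motor genes' values was not tested.

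Transcript base composition moved with the statistic across the whole table, and it did so among the motor genes too, though not evenly from band to band. Over the 56 motor genes averaging at least 10 normalized counts, Spearman's rho between GC content and the Wald statistic was 0.318, against 0.417 over 13627 rows; these are descriptions across genes measured in the same mice. Below 45% GC, 1 of 10 motor genes was positive in the authors' deposited table, as were 24.1% of all rows. From 45 to 50% GC, 12 of 23 motor genes and 40.3% of all rows were positive. From 50 to 55% GC, 12 of 15 motor genes and 56.3% of all rows were positive, and at 55% or more 9 of 18 motor genes and 66.01% of all rows. Kif5b and Kif2a, both negative, have GC contents of 41.1% and 38.6%, and Kif5a and Dctn3, both positive, 53.8% and 54.8%. Other genes went against the trend: Kif7 and Dctn1, both negative, have a GC content of 59.4% each. With the trend on GC content and length taken off, the log2 values were 0.12 for Kif5a, -0.04 for Kif5b, -0.05 for Kif2a, 0.18 for Dctn3 and 0.19 for Kif26b, and the median over the Dctn genes was 0.09. Kif18a, with a GC content of 38.3%, was at 0.09 in the authors' deposited table and at 0.16 without the trend.

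**Figure D3:**
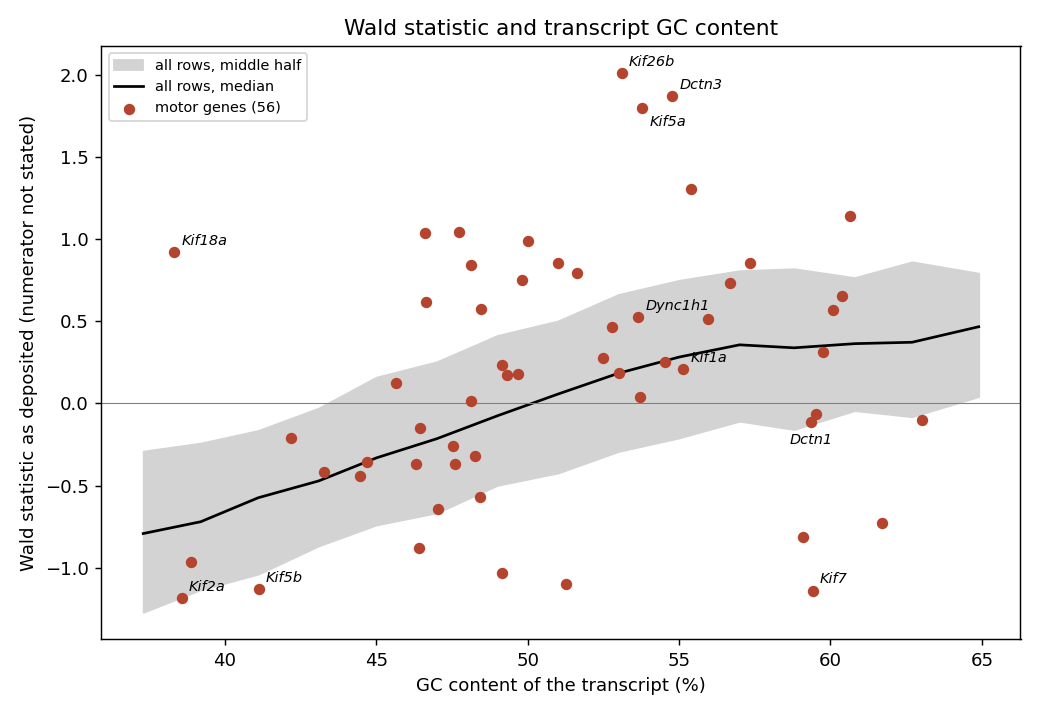
Deposited Wald statistic (y axis, numerator not stated) against GC content of the longest reference transcript (x axis) for the 56 motor genes averaging at least 10 normalized counts. The line is the median of all rows in bins of GC content and the band their interquartile range; 16 motor genes lie above the band, among them Kif26b, Dctn3, Kif5a and Kif18a, and 10 below it, among them Kif7 and Kif2a.

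The statistics of the table were narrower than a standard normal, with a scaled median absolute deviation of 0.789, and rescaling to that width changed which motor genes fell under 0.05. On this scale 3 of 56 motor genes averaging at least 10 normalized counts (5.36%) had an unadjusted p under 0.05, against 4.95% of all rows. From the authors' deposited statistics so rescaled, these were Kif26b (p = 0.00948), Dctn3 (p = 0.0158) and Kif5a (p = 0.0201). With GC content and length taken off as well, there were 5 of 56 (8.93%) against 6.36% of all rows. They were the same 3 genes with Kif18a (p = 0.0154) and Kif7 (p = 0.0258), again from the authors' deposited statistics. On neither scale did a motor gene pass after Benjamini-Hochberg adjustment over all rows of that scale, and the smallest such adjusted p was 0.393, for Kif26b.

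Standard errors limit how these fold changes can be read. Standard errors reached at most 0.11 in the authors' deposited table, and 39.7% of all rows, with 14 of the 66 motor genes, lay within 0.005 of that ceiling. The 10 motor genes with a mean normalized count under 10 had a median standard error of 0.064, smaller than the 0.0928 of the 27 motor genes at 1000 or more, in the authors' deposited table. Without shrinkage, counting noise would give scarcer genes larger errors, whereas shrinkage of fold changes toward 0 gives errors of this form. In the authors' deposited table the median error of all rows near a mean normalized count of 1.47 was 0.035. The values are therefore read as shrunken, although the sources do not record it. So read, the log2 values lie nearer 0 than unshrunken estimates would, chiefly for scarce kinesins. How far such estimates would hold differences between C9-BAC and wild-type brain, or counting noise, cannot be told here. Among abundant motors, Dctn4 had the smallest standard error (0.076), and those of Kif5a and Kif5c were 0.079 each in the authors' deposited table.

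**Figure D4:**
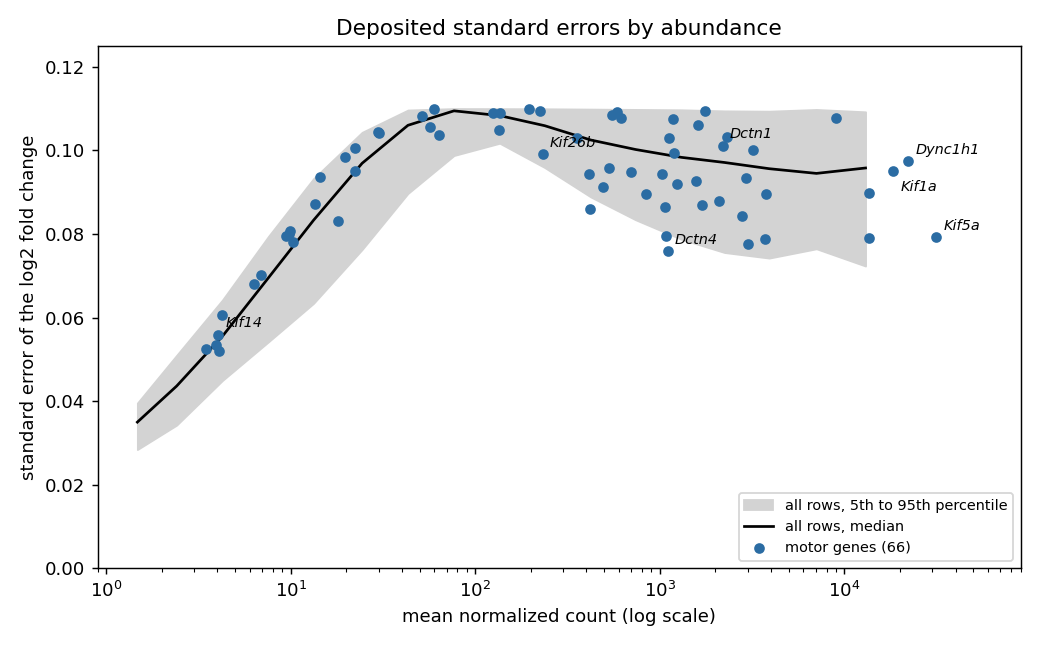
Deposited standard error of the log2 fold change (y axis) against mean normalized count (log x axis) for the 66 motor genes, over the median and the 5th to 95th percentile of all rows. The errors climb to a ceiling of 0.11 near a mean normalized count of 100 and are smallest for the scarce mitotic kinesins.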

How the data were processed

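The authors' deposited table compares brain RNA of 5 C9-BAC and 3 wild-type mice. Per the submitters' processing notes, the tools were DESeq2, DESeq, Bowtie2 and Trimmomatic, without versions, and the build was mm10. Counter, annotation and filters: not given in the sources used here. Per the file headers, its columns are the mean normalized count (a signal, counts divided by size factors), the log2 fold change with a standard error, the Wald statistic (a score), and the p-value and adjusted p-value. The deposited adjusted p equals a Benjamini-Hochberg (BH) adjustment over 15944 rows with a p, and 34 rows have none. All 66 motor genes have a p.

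Symbols came from RefSeq accessions of GRCm38.p6 for 15853 rows and from GENCODE vM21 for 77, leaving 48 unnamed. Transcript length and GC content came from the longest GENCODE vM21 transcript of each row (99.3% of rows), and stretches of 50 bases were compared in the sense direction. Alternatives rescaled the Wald statistic to its median and scaled median absolute deviation over the 13704 tested rows averaging at least 10 normalized counts, with or without a cubic trend on GC content and a quadratic one on log length taken off. The trend was fitted over those rows where GC content and length were known, and was taken off scarcer rows too. This procedure was run on simulated statistics with a linear GC trend, no length trend, and shifts larger than any statistic of the authors' deposited table. That run does not show how it handles a length trend or smaller changes. Python 3.11.15, pandas 2.3.3, numpy 2.4.6 and scipy 1.17.1 were used.

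Members, roles and lists were chosen with earlier results of these data known. Every motor gene could be named, being chosen by symbol; the naming rule put first Kif5a, Dctn1, Kif1a and Dync1h1, in each role the gene of highest level per kb and of smallest p, those under a p of 0.05, and the 3 most positive and 3 most negative among those averaging at least 10 normalized counts. In the lists, the 2 genes of smallest p were named, except that some are not reported here.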

Additional observations from a re-analysis of the deposited data

How the results depend on the processing

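Of 154 recomputed values, 146 were counted as unchanged, a count that says little about robustness. The empirical null leaves a log2 value as it is, and no error is recorded for the medians. Among those counted as unchanged, the median of the kinesin light chains went from 0.02 as deposited to -0.01 with GC content and length taken off. No motor gene passed as deposited, with BH adjustment over rows averaging at least 10 normalized counts, with the empirical null, with GC content and length taken off, or among motor subunits without shared copies. The count at an unadjusted p under 0.05, which was 1 as deposited, was 3 with the empirical null and 5 with GC content and length taken off; the narrower null by construction lowers p-values. With GC content and length taken off, 9 of the 66 motor genes changed sign, and 4 of 8 other kinesins, 5 of 8 dynein light chains and both dynein-2 genes were positive, against 5, 6 and 1 as deposited. The share of positive motor genes, 51.5% as deposited, was 58.9% among those averaging at least 10 normalized counts, 62.8% at 100 or more and 56.1% with GC content and length taken off. Over all rows the deposited share was 47.4%, and 48.2% among those averaging at least 10 normalized counts. The share of all rows rose with abundance, to 54.3% at 1000 or more, where 59.3% of 27 motor genes were positive. The share of all rows at 100 or more is not given here, so the 62.8% has no like background. With the actin-related and capping subunits added, a choice made after seeing the data, the median log2 value over dynactin was 0.03, against 0.09 for the Dctn genes. Of the 10 highest motor genes per kb, 9 were still among the 10 highest with the median transcript length. No paired analysis was possible because the genotypes share no replicate numbers and the table holds no values of single mice; fits on counts and without single mice were not run for the same reason. Depth limits the mitotic kinesins most, 9 of 13 of which had a mean normalized count under 10.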
